A study of Homo sapiens with 4 samples.

Results

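The loops described here are the 553 high-confidence loops of chromosome 16, out of 22680 such loops in the genome (2.44%). They were taken as every loop of the deposited high-confidence table that lies on chromosome 16, and the chromosome was picked because its share of contacts differed between genotypes. A loop is a pair of anchors, stretches of DNA that were found joined, and its strength is counted in paired-end tags (PETs), read pairs that link the 2 anchors. The PETs come from SMC1 HiChIP of A673 cells, an Ewing sarcoma line. HiChIP ligates DNA ends that lie near each other in fixed nuclei and keeps the products bound by a chosen protein.

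There were 2 STAG2-null and 2 wild-type libraries. The STAG2-null cells were single-cell clones edited with Cas9, and the labels do not say how the wild-type cells were grown, so clone and genotype cannot be told apart. The labels do not call the libraries of a genotype separate cultures, so each p-value reflects the scatter among these 4 libraries and that scatter could be technical. Positions are in the hg19 build.

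SMC1 is a core subunit of cohesin, the ring-shaped complex that extrudes chromatin into loops, and CTCF is the DNA-binding protein at which extrusion often halts. STAG2 is one of the interchangeable STAG subunits of cohesin and is recurrently mutated in Ewing sarcoma. In this tumour the EWS-FLI1 fusion protein binds through the FLI1 DNA-binding domain and activates distant enhancers.

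The libraries held 682724 and 698002 PETs in STAG2-null cells, against 661881 and 765017 PETs in wild-type cells. Between 73.3% and 74.7% of the anchor pairs of a library rested on 1 PET. Chromosome 16 held 2589 of 79850 anchors and 32007 of 1125468 anchor pairs (2.84%). Its largest stretch without an anchor, 11.1 Mb between 35251361 and 46390794, was taken as the border of the arms, and 0 pairs crossed it. The short arm carried 190 of the high-confidence loops and the long arm 363.

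The 553 loops held between 10 and 384 PETs over the 4 libraries, with a median of 19 against 20 for all loops of the genome. They were 5.03 to 821 kb long, with a median of 14.9 kb against 24.5 kb for all loops. Loops of 5 to 10 kb made up 32.9% of those on chromosome 16 and 22.9% of all, and loops of 50 to 200 kb made up 15.0% and 24.6%. The loops joined 557 distinct anchors. Of these anchors 323 served 1 loop and 45 served at least 5, so many loops share an anchor and are not independent.

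Gene names are given by the authors' deposited table of differential loops alone, which covers 22 of the 553 loops. It places the start of 12 genes at an anchor of these 22, and 6 of the 12 matched 1 promoter each in RefSeq (GRCh38.p14). The sequences shown are the 250 bases upstream of the start of ADAT1, which encodes a tRNA adenosine deaminase, and of ZCCHC14. Both genes start at an anchor of a loop that stood among the 10 furthest above its surroundings by p-value. Capitals mark AGGNGGC, part of the motif bound by CTCF, on either strand. ADAT1 lies on the minus strand at chr16:75623282-75623531, and ZCCHC14 on the minus strand at chr16:87493025-87493274, both in GRCh38.p14.
ADAT1: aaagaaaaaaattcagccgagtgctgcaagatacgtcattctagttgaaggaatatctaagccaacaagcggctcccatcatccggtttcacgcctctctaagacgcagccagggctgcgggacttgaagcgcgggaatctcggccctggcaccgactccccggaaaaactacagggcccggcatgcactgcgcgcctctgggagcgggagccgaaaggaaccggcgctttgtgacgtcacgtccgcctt
ZCCHC14: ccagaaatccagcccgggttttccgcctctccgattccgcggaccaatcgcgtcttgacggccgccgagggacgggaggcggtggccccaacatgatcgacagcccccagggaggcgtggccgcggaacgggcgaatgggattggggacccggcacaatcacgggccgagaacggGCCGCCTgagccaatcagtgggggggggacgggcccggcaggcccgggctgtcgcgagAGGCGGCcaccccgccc
The ADAT1 window held no AGGNGGC and the ZCCHC14 window held 2, and 31.5% of the 35116 promoter windows in the table held at least 1. CCGGAAG, a form of the ETS-family motif to which FLI1 binds, was in neither, and was found in 8.52% of the table's windows. A match is only a match of letters, and these windows are not the anchors themselves.

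Chromosome 16 held 20426 and 20834 PETs in the STAG2-null libraries, against 15873 and 18079 in the wild-type libraries. These were 2.99% (95% Wilson interval 2.95 to 3.03) and 2.98% (2.95 to 3.02) of the STAG2-null PETs, against 2.40% (2.36 to 2.44) and 2.36% (2.33 to 2.40) of the wild-type PETs. The intervals cover counting error only. The log2 ratio of the mean shares, STAG2-null over wild-type, was 0.33 and was the highest of 23 chromosomes, ahead of 0.26 on chromosome 7 and 0.25 on chromosome 19. The chromosome was chosen for this share, so it was not tested. More copies of the DNA, more SMC1 on it and more contacts per copy cannot be told apart in these counts.

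**Figure D1:**
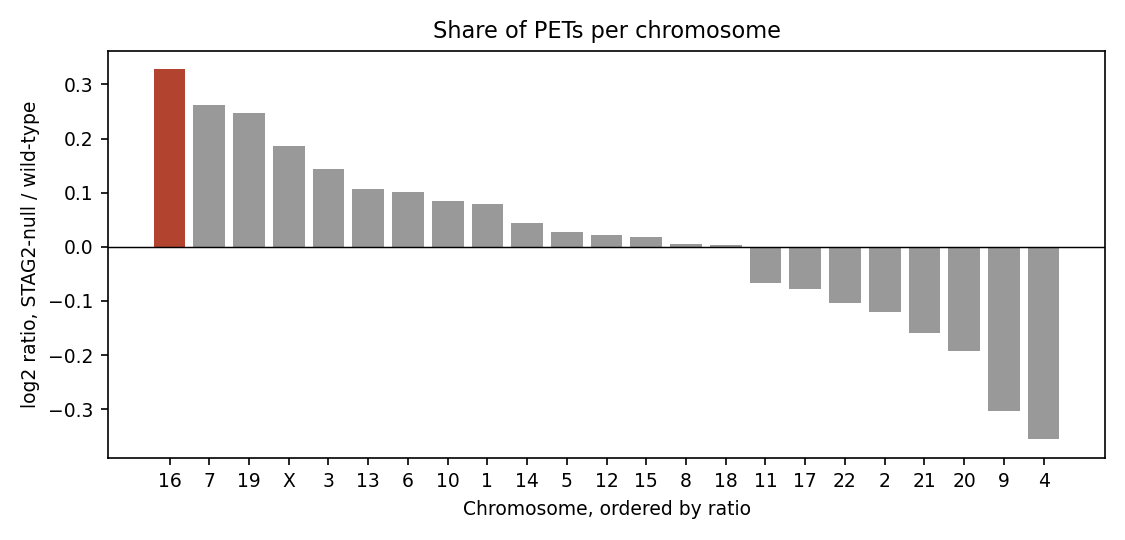
The bars give, for each chromosome, the log2 ratio of its mean share of PETs in the 2 STAG2-null libraries over that in the 2 wild-type libraries. Chromosome 16, in red, stands highest at 0.33.

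The surplus ran along the short arm and most of the long arm and was smaller towards the end of the long arm. Over all pairs of the short arm, the STAG2-null libraries held 1.21 ± 0.00507% of their PETs and the wild-type libraries 0.959 ± 0.0130% (SD, n = 2 each), a log2 ratio of 0.34. Over the long arm the shares were 1.77 ± 0.010% in STAG2-null and 1.42 ± 0.0117% in wild-type libraries (SD, n = 2 each), a log2 ratio of 0.32. The arms therefore had close ratios. The log2 of short-arm over long-arm PETs was -0.56 and -0.54 in the STAG2-null libraries, against -0.56 and -0.57 in the wild-type libraries, a mean difference of 0.02. The two-sided exact permutation test gave p = 0.333, the smallest p that 2 against 2 libraries allow.

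In steps of 5 Mb the STAG2-null share was higher almost throughout. Of 17 steps, 16 had both STAG2-null libraries above both wild-type libraries. Along the 7 steps of the short arm the log2 ratio was 0.28, 0.55, 0.29, 0.35, 0.45, 0.30 and 0.40 from the tip to the centre. On the long arm, the 7 steps from 45 to 80 Mb stood at 0.34, 0.54, 0.39, 0.52, 0.46, 0.43 and 0.49. The 3 steps beyond 80 Mb stood at 0.13, 0.15 and -0.10. The step from 60 to 65 Mb rests on 371 PETs, with a log2 ratio of -0.47 between its STAG2-null libraries, and that from 90 to 95 Mb, where the groups overlapped, on 867.

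The log2 ratio between libraries of 1 genotype was smaller in size than the genotype ratio in every step but the last. There it was -0.24 between the STAG2-null and -0.27 between the wild-type libraries, against -0.10 between genotypes. From 85 to 90 Mb the margin was narrow, at 0.11 between the STAG2-null libraries against 0.15 between genotypes. Over the 15 steps with at least 1000 PETs the median log2 ratio was 0.39 and its SD across steps 0.13, while the log2 ratio of one STAG2-null library over the other had an SD of 0.068 and that of the wild-type libraries an SD of 0.077. All 15 had the STAG2-null libraries apart on the high side, against 39.9% of the 424 such windows in the genome, and 0 on the low side, against 32.1% of them. The genome's windows had a median of 0.04 and an SD of 0.24. The steps add up to the share that chose the chromosome, so these are descriptions.

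**Figure D2:**
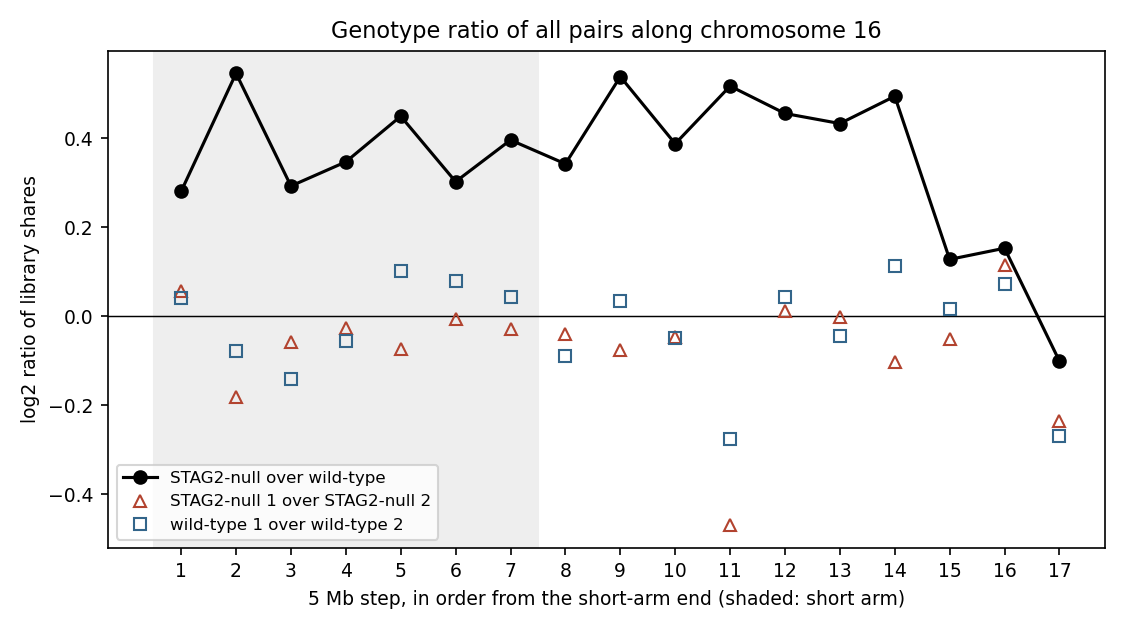
The log2 ratio of STAG2-null over wild-type shares of PETs is plotted as filled circles for each 5 Mb step along chromosome 16, from the tip of the short arm (shaded) to the end of the long arm, and open symbols give the log2 ratio between the 2 libraries of a genotype. The ratio is above 0 in every step but the last, between 0.28 and 0.55 before 80 Mb and at 0.13, 0.15 and -0.10 after it.

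The last part of the long arm, from 80 Mb on, took 0.667 ± 0.0267% of the STAG2-null PETs and 0.606 ± 0.0146% of the wild-type PETs (SD, n = 2 each), a log2 ratio of 0.14. The stretch of the long arm before it held 1.11 ± 0.0167% and 0.816 ± 0.00284%, a log2 ratio of 0.44. The log2 of PETs beyond 80 Mb over those on the rest of the chromosome was -1.75 and -1.85 in STAG2-null libraries, against -1.53 and -1.57 in wild-type libraries. Both STAG2-null values lie below both wild-type values. The mean difference was -0.25 with the smallest p the exact permutation test allows, 0.333, and the border at 80 Mb was drawn after the values were seen. Within this end the ratio was not even. It stood at 0.31 in the megabase from 85 to 86 Mb, which holds 5482 PETs and 75 of the 553 loops, at -0.05 in the next, on 756 PETs, and at 0.02 from 89 to 90 Mb.

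The high-confidence loops, too, held more PETs in STAG2-null libraries. Their summed PETs were 3867 and 4294 in STAG2-null libraries, against 2857 and 3176 in wild-type libraries. As shares of all PETs this is a log2 ratio of 0.48, while all high-confidence loops of the genome stood at 0.07, so that relative to these the chromosome's loops stood at 0.41. The same log2 ratio of shares was 0.52 for the loops of the short arm, 0.57 for those from 46 to 80 Mb and 0.33 for those beyond 80 Mb. The order of the 3 stretches was that of all pairs.

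Scaled to the library totals, the fitted changes of the loops leaned upwards. Of the 553 loops, 192 (34.7%) had both STAG2-null libraries above both wild-type libraries, against 18.0% of all loops, and 40 (7.23%) had them below, against 20.4%. Loops with at least 20 PETs were tested by edgeR's quasi-likelihood method, and p-values were adjusted by Benjamini-Hochberg over all 11864 such loops of the genome. Of the 272 on chromosome 16, 1 was called higher in STAG2-null cells at an adjusted p under 0.05, against 0.0843% of all tested loops, and 0 were called lower, against 0.11%. The count of 1 became 0 under each of the 9 other settings tried, among them plain library totals (lowest edgeR adjusted p = 0.0556) and each library left out (0.141 to 0.526). At an unadjusted p under 0.05, 36 were higher (13.2%, against 4.83% of all) and 3 lower (1.1%, against 4.74%). The 36 became 21 without STAG2-null replicate 2 and 23 without wild-type replicate 1. The median log2 change was 0.38 on chromosome 16 and -0.04 over all loops, and 199 of the 272 (73.2%) were above 0, against 49.2% of all. The chromosome was chosen on this contrast, so nothing is read from these counts.

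Scaled to the 5 Mb window around each loop, that lean was gone. In this scale a log2 change of 0 means the same genotype ratio as all pairs of the window, apart from 1 factor per library that removes a shift shared by all loops. Of the 264 loops that could be tested, 0 were called higher, against 0.017% of 11772 loops in the genome, and 0 lower, against 0.0% of them. The lowest adjusted p was 0.438, from edgeR. At an unadjusted p under 0.05, 9 were higher (3.41%, against 3.57% of all) and 9 lower (3.41%, against 3.58%), and DESeq2 gave 1 and 0. Without the shared factor the 9 and 9 became 17 and 4, with the median of all loops at 0.11 in place of -0.01. Without wild-type replicate 2, 15 were higher. The median log2 change was 0.05 on chromosome 16 and -0.01 over all loops, with SDs of 0.63 and 0.61.

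The median standard error of a loop on chromosome 16 was 0.60 on the log2 scale, about the size of that SD. Loops of the chromosome at about 3 times their standard error were not called, so a difference of that size from the window could be missed in a single loop. Over the genome, 2 loops were called higher in this fit. Of the 553 loops, 281 had under 20 PETs and 8 stronger ones lay in windows of under 1000 PETs. At the limit, 33 loops had exactly 20 PETs and 43 had 19. With the limit lowered to 10 PETs, 541 loops were tested, 0 were called higher, against 0.00447% of all, and 0 lower, against 0.0%. In that fit 22 were higher at an unadjusted p under 0.05 (4.07%, against 3.17% of all) and 12 lower (2.22%, against 3.11%).

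**Figure D3:**
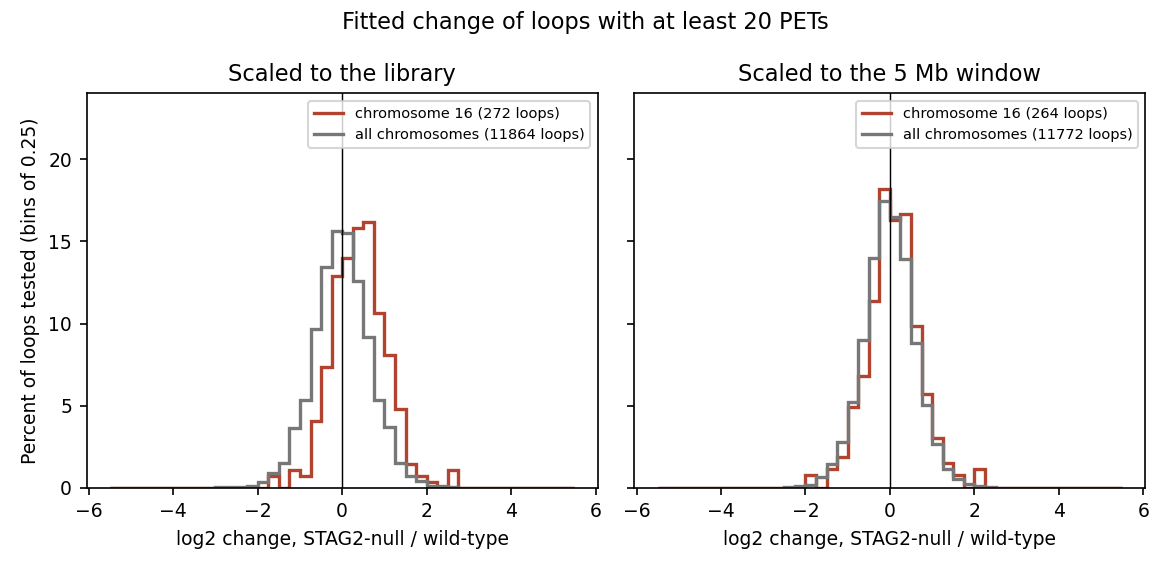
Histograms of the fitted log2 change, STAG2-null over wild-type, of loops with at least 20 PETs, in percent of the loops tested per bin of 0.25. Scaled to the library, the 272 loops of chromosome 16 have a median of 0.38, against -0.04 for all loops. Scaled to the 5 Mb window, the 264 loops have a median of 0.05, against -0.01.

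Among loops of up to 200 kb, the median change against the window was lower in each longer class, on chromosome 16 as over the genome. The median log2 change against the window was 0.25 for the loops of 5 to 10 kb and 0.08 for those of 10 to 20 kb, against 0.13 and 0.05 over all loops of these lengths. It was -0.00 for loops of 20 to 50 kb and -0.20 for those of 50 to 200 kb, against -0.08 and -0.15 over all loops. The loops of at least 200 kb, 26 on chromosome 16, did not continue this order, with a median of -0.03 against 0.05 over all loops. These medians are from the fit with at least 10 PETs.

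The loops that departed most from their window, by the smallest unadjusted p in each direction, were weak ones. The 10 on the high side held 20 to 30 PETs in all, and 9 of them were shorter than 20 kb. On the low side 7 of 10 held under 30 PETs. All 10 on the high side and 7 on the low side had libraries that did not overlap between genotypes at library scale. Without such picking, 34.7% of the chromosome's loops stood apart on the high side and 7.23% on the low side, against 18.0% and 20.4% of all loops. Since the named loops were picked by p in these same libraries, their values and this separation are descriptions. Means are given in normalised PETs, that is, per 1000000 PETs of the library total after TMM scaling.

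The loop at the start of ADAT1 had the smallest p on the high side. It joins 75654295-75659702 to 75668986-75670775, 12.9 kb apart, and is listed by the authors with ADAT1 and KARS, the lysyl-tRNA synthetase gene. It held 14 and 12 PETs in STAG2-null libraries, against 2 and 2 in wild-type libraries. Both STAG2-null libraries were several times above both wild-type libraries. The means were 18.3 ± 2.78 normalised PETs in STAG2-null libraries and 2.90 ± 0.216 in wild-type libraries (SD, n = 2 each).

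At library scale this was the one loop of chromosome 16 that passed, with a log2 change of 2.58 ± 0.66 (SE, edgeR adjusted p = 0.0465). The call was lost in each other setting that tested it, with edgeR adjusted p-values of 0.0556 with plain library totals, 0.0630 with the replicate block and 0.174 to 0.560 without each library in turn. Against its window it was 2.07 ± 0.67 with an edgeR adjusted p of 0.438. The ADAT1 anchor held 50 and 54 PETs over all its pairs in STAG2-null libraries, against 31 and 20 in wild-type libraries (0.56 ± 0.26 against the window, edgeR adjusted p = 0.531). Its other high-confidence loop, to 75680389, held 3 and 2 PETs in STAG2-null and 5 and 5 in wild-type libraries, -1.49 in the fit with at least 10 PETs.

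Of the loops high against their window, 3 lay within the same stretch of the long arm, from 66980195 to 67190869. The first, from 67179029 to 67188313, starts at B3GNT9 and is also listed with TRADD, an adaptor of the tumour necrosis factor receptor. It held 10 and 11 PETs in STAG2-null and 1 and 2 in wild-type libraries (2.19 ± 0.76, edgeR adjusted p = 0.514). The next, from 66980195 to 66987304, held 7 and 12 PETs in STAG2-null and 1 and 2 in wild-type libraries (2.05 ± 0.77). The last ends at CBFB, which encodes the beta subunit of core-binding factor, the partner of RUNX proteins. From 67050993 to 67061480, it held 6 and 14 PETs in STAG2-null and 3 and 1 in wild-type libraries (1.73 ± 0.71, edgeR adjusted p = 0.620). Without STAG2-null replicate 2 it stood at 1.07, without wild-type replicate 2 at 1.12 and without wild-type replicate 1 at 2.73. Over all its pairs the CBFB anchor held 33 and 45 PETs in STAG2-null and 34 and 27 in wild-type libraries (-0.06 ± 0.26 against the window, edgeR adjusted p = 0.970). The B3GNT9 anchor held 70 and 69 PETs in STAG2-null and 35 and 45 in wild-type libraries (0.38 ± 0.21, edgeR adjusted p = 0.640). In each of the 3 loops the genotypes did not overlap.

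A busy anchor next to them leaned below its window and was not called. The anchor at 67207111-67220557 serves 10 high-confidence loops, of which 2 were above 0 against the window in the fit with at least 10 PETs. It held 92 and 81 PETs in STAG2-null and 74 and 81 in wild-type libraries, -0.26 ± 0.17 against the window (edgeR adjusted p = 0.70). It is joined to the anchors of these loops at 66980195, 67050993 and 67179029, and these 3 long loops stood at -0.18, 0.22 and 0.14 in the same fit. In the whole step from 65 to 70 Mb, 32 of the 58 loops were above 0 in that fit, with a median of 0.08.

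Near the end of the long arm, 3 of the 10 high loops lay between 85423664 and 85661618. The anchor at 85639433-85651792, the busiest of the chromosome with 16 loops, carried 2 of them. One reaches 218 kb back to 85423664 and held 11 and 10 PETs in STAG2-null and 3 and 4 in wild-type libraries (1.32 ± 0.61). The other, 14.5 kb long, ends at 85658629 and held 8 and 9 PETs in STAG2-null and 2 and 3 in wild-type libraries (1.49 ± 0.69). Of the 16 loops of this anchor 8 were above 0 in the fit with at least 10 PETs, and the anchor as a whole held 163 and 172 PETs in STAG2-null and 118 and 166 in wild-type libraries (0.12 ± 0.13 against the window, edgeR adjusted p = 0.843). The third, from 85583157 to 85586267, held 12 and 5 PETs in STAG2-null and 3 and 3 in wild-type libraries (1.24 ± 0.66). Its value was 0.48 without STAG2-null replicate 1.

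The remaining high loops were spread over both arms. The ZCCHC14 loop, from 87509864 to 87518956, held 10 and 6 PETs in STAG2-null and 1 and 3 in wild-type libraries (1.71 ± 0.74), and stood at 2.60 without wild-type replicate 2. The loop within CLEC16A, a gene linked to autophagy of mitochondria, runs from 11220933 to 11227146 and held 9 and 12 PETs in STAG2-null and 1 and 5 in wild-type libraries (1.41 ± 0.64). Its value was 0.83 without wild-type replicate 1 and 2.75 without wild-type replicate 2. The last, from 46394669 to 46400986, held 7 and 11 PETs in STAG2-null and 1 and 4 in wild-type libraries (1.39 ± 0.69), with 0.85 without wild-type replicate 1 and 2.51 without wild-type replicate 2. It belongs to a cluster of loops at the start of the long arm.

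On the low side, the loop from 33921597 to 33932079 had the smallest p. It held 7 and 5 PETs in STAG2-null and 7 and 17 in wild-type libraries, and wild-type replicate 2 set most of the gap (-1.45 ± 0.51, edgeR adjusted p = 0.533, and -0.74 without that library). The megabase around it, from 33 to 34 Mb, held only 88 PETs, 36 of them its own. That megabase had a log2 ratio of shares of -0.46, against 0.40 for the 5 Mb step. Whether the loop departs from its closer surroundings was not tested. The loop from 4337604 to 4348359 held 3 and 3 PETs in STAG2-null and 5 and 12 in wild-type libraries (-1.82 ± 0.65, and -1.12 without wild-type replicate 2). A pair of loops that overlap each other lay at the end of the long arm. The one from 89661791 to 89704934, 41.4 kb long, held 3 and 3 PETs in STAG2-null and 8 and 10 in wild-type libraries (-1.77 ± 0.65, edgeR adjusted p = 0.548). The one from 89679179 to 89722271, 39.7 kb long, held 3 and 4 PETs in STAG2-null and 6 and 9 in wild-type libraries (-1.30 ± 0.65). In both the genotypes did not overlap. None of the 10 low loops has a gene name in the deposited tables.

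The other low loops were less separated. The loop from 29211961 to 29221582 held 5 and 2 PETs in STAG2-null and 8 and 6 in wild-type libraries (-1.35 ± 0.66). It stood at -2.17 without STAG2-null replicate 1 and -0.78 without STAG2-null replicate 2. The loop from 57489575 to 57495595 held 6 and 4 PETs in STAG2-null and 8 and 8 in wild-type libraries (-1.12 ± 0.60). The loop from 53077498 to 53085420 held 10 and 5 PETs in STAG2-null and 11 and 9 in wild-type libraries (-1.02 ± 0.51). Its genotypes overlapped at library scale, but not as shares of the window's PETs. The loop from 68270607 to 68277546 held 3 and 8 PETs in STAG2-null and 5 and 12 in wild-type libraries (-1.14 ± 0.57). Its genotypes overlapped in both scales. The loop from 2079004 to 2195198, 117 kb long, held 3 and 5 PETs in STAG2-null and 12 and 3 in wild-type libraries (-1.24 ± 0.63). It rests on wild-type replicate 1, and without that library its log2 change was 0.11.

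**Figure D4:**
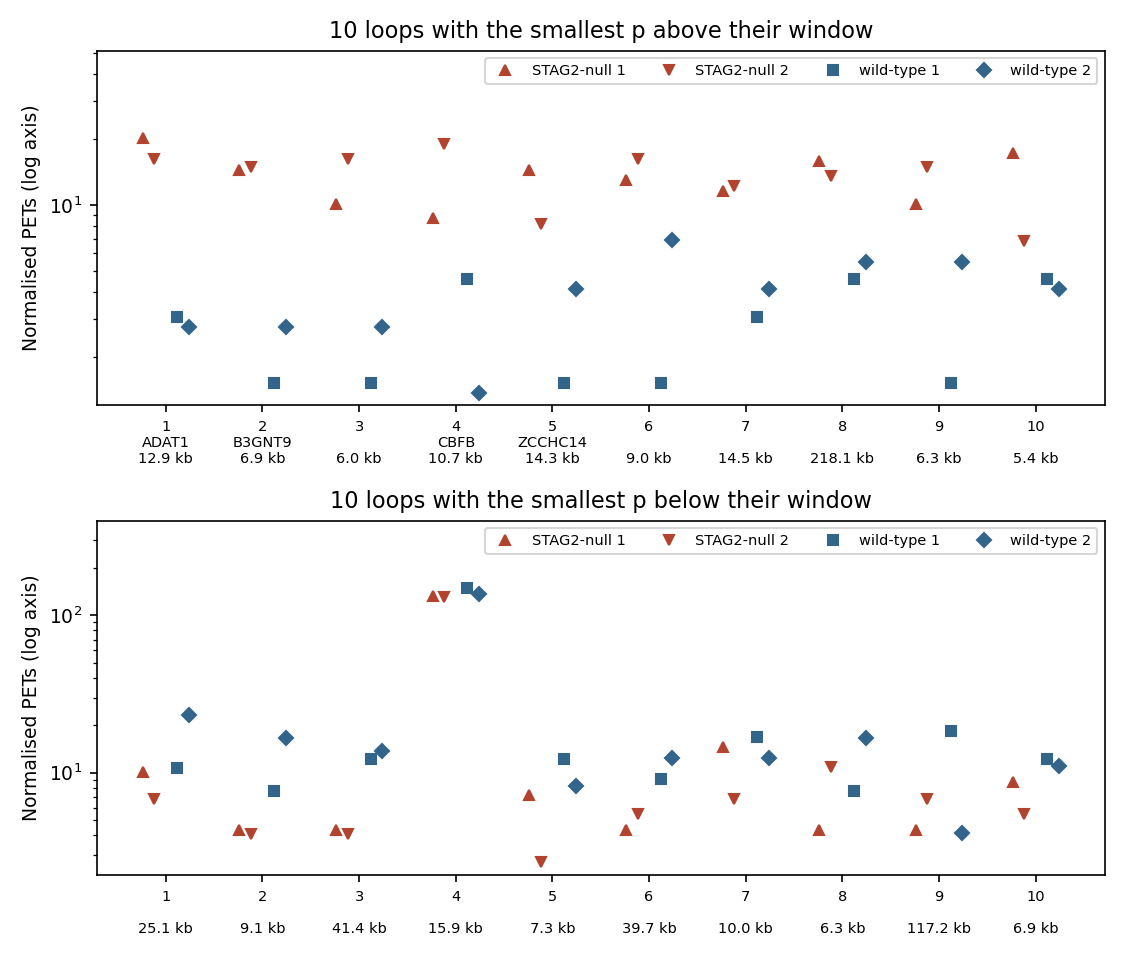
Normalised PETs (log axis) in each library for the 10 loops with the smallest p above their window and the 10 with the smallest p below it, numbered by p, with gene names and lengths where known. On the high side the 2 STAG2-null libraries lie above the 2 wild-type libraries in all 10 loops, and on the low side they lie below in 7 of 10. Over all high-confidence loops they lie above in 18.0% and below in 20.4%. The loops shown were picked by p in these same libraries.

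The strongest loops of the chromosome formed one cluster at the start of the long arm, bounded here after its values were seen. It begins at 46390794, where the stretch without anchors between the arms ends, and how uniquely reads map there was not tested. In 43.3 kb, from 46390794 to 46434049, 8 anchors were joined by 20 high-confidence loops, which held 13.7% of the PETs of all the chromosome's high-confidence loops. All pairs of the cluster summed to 553 and 561 PETs in STAG2-null and 384 and 480 in wild-type libraries, a log2 ratio of shares of 0.42. The rest of its 5 Mb step stood at 0.22, so the step's 0.34 was set largely by the cluster, which made up 62.4% of it. Of the 16 loops of the cluster that were tested, 7 were above and 9 below the window, between -0.72 and 1.39. The cluster makes up most of this window, so its loops are compared largely with their own sum, and nothing is read from that split. At library scale 12 of the 16 were above 0. The same limit holds for the window values of the cluster's loops given below.

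The 5 loops with the most PETs were all in this cluster, and they differed among themselves. The loop from 46390794 to 46405715 held 92 and 96 PETs in STAG2-null and 97 and 99 in wild-type libraries. Its means, 132 ± 1.76 normalised PETs in STAG2-null libraries and 142 ± 8.53 in wild-type libraries (SD, n = 2 each), were close, and it lacked the surplus of its step (-0.48 ± 0.18 against the window, -0.11 ± 0.22 at library scale, edgeR adjusted p = 0.548 against the window). Leaving its own PETs out of the window total gave -0.53 ± 0.19. The loop from 46398955 to the same second anchor held 88 and 69 PETs in STAG2-null and 44 and 45 in wild-type libraries (0.40 ± 0.22 against the window, 0.77 ± 0.24 at library scale), and its genotypes did not overlap. The loop from 46394669 to that anchor held 53 and 66 PETs in STAG2-null and 38 and 31 in wild-type libraries (0.36 ± 0.24 against the window). All 3 end at 46405715-46410100. The positive values rest partly on single libraries, at 0.13 for the loop from 46398955 without STAG2-null replicate 1 and 0.10 for the loop from 46394669 without wild-type replicate 2.

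The other strong loops start at 46390794-46393163. The loop to 46398955 held 77 and 92 PETs in STAG2-null and 62 and 81 in wild-type libraries (-0.18 ± 0.19 against the window). The loop to 46424605 held 39 and 35 PETs in STAG2-null and 17 and 40 in wild-type libraries (-0.04 ± 0.28 against the window). None of the 6 loops of this first anchor was above 0 against the window in the fit with at least 10 PETs, and over all its pairs it held 273 and 279 PETs in STAG2-null and 215 and 283 in wild-type libraries (-0.15 ± 0.10, edgeR adjusted p = 0.716).

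Summing all pairs at an anchor gave larger counts and the same outcome. Of 1006 anchors on chromosome 16 with at least 50 PETs, 0 were called higher against their window, against 0.0% of 33217 anchors in the genome, and 0 lower, against 0.0%. The lowest edgeR adjusted p on the chromosome was 0.195. At an unadjusted p under 0.05, 44 anchors were higher (4.37%, against 4.18% of all) and 37 lower (3.68%, against 4.37%), and DESeq2 gave 2 and 3. The 44 became 26 without STAG2-null replicate 2 and 25 without wild-type replicate 2, when the 37 became 23.

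The authors' deposited table of differential loops holds 22 of the 553 loops, and lists all 22 as stronger in mutant cells and 0 as stronger in wild-type cells. That is 3.98% of the chromosome's loops, against 1.54% of all loops listed as stronger in mutant and 1.32% listed as stronger in wild-type cells. In that table the authors' log2 fold change is wild-type over mutant. Turned round, the 22 ran from 0.77 to 3.16 with a median of 2.23, and their adjusted p in the authors' deposited table from 0.00942 to 0.0885. Of the 22, 14 had the PETs to be tested against their window, and all 14 were above 0, with a median of 1.24 and of 1.61 at library scale. Both figures come from loops that were listed for being high in the same libraries, so they are no separate evidence of direction.

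The authors' deposited table also flags what lies at the anchors of the 22 loops. Of the 22, 18 were under 20 kb, 17 had CTCF at an anchor and 10 at both. Of the 41 anchors of the 22 loops, 24 carried CTCF (58.5%, against 48.3% of the 1134 anchors of that table) and 28 carried H3K27ac, a mark of active enhancers and promoters (68.3%, against 57.8%). FLI1 was flagged at 7 (17.1%, against 15.2%) and a promoter at 10 (24.4%, against 28.7%). Such flags are given for the table's loops alone, so the other 531 loops of the chromosome could not be described this way.

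Named loops of that table include genes with roles in transcription and signalling. The loop from 23911548 to 24319951, 409 kb long, is listed by the authors with PRKCB and CACNG3, with no gene start at an anchor. PRKCB encodes protein kinase C beta and is a known target of EWS-FLI1. The authors' deposited table flags FLI1 at both anchors of this loop. It held 4 and 7 PETs in STAG2-null and 0 and 1 in wild-type libraries, a ratio of shares of 11.4 with an exact 95% interval of 1.65 to 489 that covers counting error only. It had too few PETs for the test at 20. In the fit with at least 10 it was 2.72 ± 1.27 against its window (edgeR adjusted p = 0.748). Its anchor at 23911548-23921192 serves 8 high-confidence loops. Over all its pairs that anchor held 93 and 106 PETs in STAG2-null and 56 and 68 in wild-type libraries (0.27 ± 0.17 against the window, edgeR adjusted p = 0.699). The loop within CHD9, a chromatin remodeller gene, from 53116720 to 53123922, held 10 and 14 PETs in STAG2-null and 5 and 4 in wild-type libraries (0.78 ± 0.56, edgeR adjusted p = 0.824). Its genotypes did not overlap.

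The loop from 29815349 to 29825588 has the starts of PAGR1, MAZ, a zinc-finger transcription factor gene, and PRRT2 at its anchors. It held 17 and 18 PETs in STAG2-null and 4 and 11 in wild-type libraries (0.83 ± 0.45 against its window, edgeR adjusted p = 0.737). The loop with the starts of NRN1L and EDC4, a gene of mRNA decapping, at its anchors, from 67905671 to 67915989, held 8 and 8 PETs in STAG2-null and 2 and 1 in wild-type libraries. The loop from 89622863 to 89638788 spans RPL13, a ribosomal protein gene, and ends at CPNE7, and held 6 and 8 PETs in STAG2-null and 1 and 1 in wild-type libraries. In each of these loops the genotypes did not overlap. Over all its pairs the CPNE7 anchor held 89 and 90 PETs in STAG2-null and 84 and 89 in wild-type libraries (-0.07 ± 0.16 against the window, edgeR adjusted p = 0.947). These 3 loops were chosen after their values were seen.

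Of the gene lists drawn up for chromosome 16, 5 had no gene named by the deposited tables and could not be described. These were the alpha-globin locus, the IRX and FTO genes, the FOX cluster, the cadherins and the metallothioneins. Of the EWS-FLI1 list 1 of 2 genes was named (PRKCB) and of 16 chromatin and transcription regulators 2 were (CBFB and CHD9). Each is named because the authors listed its loop as differential.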

How the data were processed

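The values start from files of the authors. Each library's deposited file gives a count of PETs and a p-value per anchor pair, per the file headers and values, and pairs with at least 1 PET are listed. HiC-Pro and hg19 are named per the submitters' processing notes, without versions. The deposited high-confidence table gives a count of PETs per loop, and the deposited differential table a log2 fold change and an adjusted p-value, per the file headers. Its count columns do not say which library they hold, and counts per library were therefore read from the library files.

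A window's total was the PETs of all pairs with midpoints in the same 5 Mb. Loops of the whole genome with at least 20 PETs were tested with edgeR 4.0.16 (R 4.3.3), quasi-likelihood, on genotype alone. Offsets were window totals (at least 1000 PETs) times TMM factors, or library totals times TMM factors, with Benjamini-Hochberg adjustment and calls at 0.05. The standard error of an edgeR log2 change was derived as its absolute value divided by the square root of the test's F statistic. Anchors needed 50 PETs. DESeq2 1.42.0 was an alternative and scipy 1.17.1 gave the exact permutation tests. The fit was tested on simulated data. Loops named were the 10 with the smallest p per direction, the 5 with the most PETs and those with a listed gene, at most 3 per list. The members and lists were chosen with earlier results of these data known. Deviations of same-numbered libraries correlated at 0.00209 over 11864 loops. With so few PETs per loop, counting error could hide a pairing, so this does not settle whether replicate numbers pair the libraries. The other settings were other windows and filters, scaling, DESeq2, a replicate block and leaving out each library.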

Additional observations from a re-analysis of the deposited data

How the results depend on the processing

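Against the 5 Mb window, the calls of loops and of anchors stayed at 0 in both directions under every setting run: windows of 10 Mb, 1 scale per arm or chromosome, sparse pairs (at most 4 PETs), no TMM factor, other filters, DESeq2, the replicate block and each library left out. At library scale the 1 loop called higher, at ADAT1, became 0 with plain library totals (lowest adjusted p 0.0556), DESeq2 (0.996), at least 10 PETs (0.0631), at least 40 PETs (0.0983), where it was not tested, and the replicate block (0.0630, 0 calls). Without each library in turn the calls were 0 to 0, with a lowest adjusted p of 0.141 to 0.526. The loop's log2 change stayed between 2.43 and 2.73. Labels share replicate numbers 1 and 2 between genotypes without pairing them, and the block changed no other call. The log2 ratio of chromosome shares, 0.33, was 0.31 over sparse pairs, 0.31 over pairs of at least 20 kb and 0.41 over high-confidence loops, and 0.32 to 0.34 without each library.

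Of 380 values of the 25 loops tested by name, 373 kept their direction, none was called, and the lowest adjusted p was 0.240. The loop from 46390794 to 46424605 turned to 0.000748 with 1 scale per arm, 0.027 with sparse pairs, 0.094 without the TMM factor, 7.47e-05 with no filter, 0.13 without STAG2-null replicate 2 and 0.57 without wild-type replicate 2 (leave-one-out range -0.41 to 0.57). The loop from 2079004 to 2195198 turned to 0.11 without wild-type replicate 1 (range -1.97 to 0.11). The step from 90 to 95 Mb turned to 0.01 without STAG2-null replicate 1 and 0.040 without wild-type replicate 2 (range -0.23 to 0.040). Loops at an unadjusted p under 0.05, 9 higher and 9 lower against the window, were 17 and 4 without the TMM factor, 22 and 12 at 10 PETs, 0 and 1 at 40 PETs and 1 and 0 by DESeq2, and at library scale the 36 and 3 were 67 and 6 at 10 PETs, 13 and 0 at 40 PETs and 5 and 0 by DESeq2. The cause was not tested. Of the loops, 281 have too few PETs for the test at 20. Leaving out the cluster at the start of the long arm, chosen after seeing the data, left the difference between the arms at 0.03.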
